A study of Drosophila melanogaster with 4 samples.

Results

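The Drosophila photoreceptor answers light through a heterotrimeric G protein and then has to switch the excited rhodopsin off. Excited rhodopsin, called metarhodopsin, activates the alpha subunit Galphaq, which is held at the membrane by the beta subunit Gbeta76C and the gamma subunit Ggamma30A and which stimulates the phospholipase C norpA, upstream of the TRP and TRPL channels. Shut-off begins when an arrestin (Arr1 or Arr2) binds metarhodopsin and stops it from activating more G protein, while the kinase Gprk1 phosphorylates rhodopsin and the calcium-dependent phosphatase rdgC removes the phosphates. Each fly eye unit, or ommatidium, holds 6 outer photoreceptors (R1-6) with the rhodopsin ninaE (Rh1), an inner R7 with Rh3 (pale) or Rh4 (yellow) and an inner R8 with Rh5 (pale) or Rh6 (yellow), surrounded by pigment cells.

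The 7 genes described here are Galphaq, Gbeta76C, Ggamma30A, Arr1, Arr2, Gprk1 and rdgC, taken by their symbols from the 13964 genes listed in the files. No limit on a measured value picked them, but they were chosen with earlier results of these data known. Single-cell RNA-sequencing was made from dissociated adult eyes of the wild-type strain Canton-S in 4 libraries, from females at 1 day of adult life and from males at 1, 3 and 7 days. Each of these groups is 1 library of pooled cells from 40 eyes, no group carried an allele or received a treatment of its own, and Actinomycin D, a drug that blocks transcription, was present in every dissociation. A level is given as CPM, the UMIs of a gene per 1000000 UMIs of a cell class in a library. A UMI marks 1 captured RNA molecule at its 3′ end, so levels of different genes can be set beside each other without a correction for length.

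The libraries held 8765 barcodes from 1-day females and 16275, 8701 and 6335 from 1-, 3- and 7-day males, of which 7058 and 13788, 7990 and 5897 passed the limits on genes and mitochondrial share. They summed to 74438691 UMIs in females and 98373676, 44430651 and 17654226 in 1-, 3- and 7-day males, so the 7-day library was the shallowest. Any 2 libraries shared between 12 and 37 cell barcodes. Cells were clustered without the 7 genes and clusters were named by marker genes. This gave 12575 R1-6-like and, among the inner photoreceptors, 2185 R7-like and 2289 R8-like cells, beside 5925 pigment-like (secondary and tertiary), 3595 neuron-like and 1175 glia-like cells over the 4 libraries. Summed R7 markers stood at 94717 to 161870 CPM in R7-like cells and 269 to 1131 CPM in R1-6-like cells. Neuron markers stood at 3019 to 4017 CPM in neuron-like cells and 3.41 to 7.59 CPM in R1-6-like cells, and pigment markers stood at 255170 to 305950 CPM in pigment-like cells and 1160 to 6077 CPM in R1-6-like cells. The 23 R1-6-like clusters were all named by their ninaE level, and 3 of them had none of the R1-6 markers raised over the other clusters. Both inner classes carried ninaE, the rhodopsin of the outer cells, in an uneven way. Of the 2185 R7-like cells, 1030 had under 1% of their UMIs from ninaE and 516 had 8% or more, and of the 2289 R8-like cells these were 858 and 849. Inner photoreceptors are therefore given both as whole classes and as the cells with under 2% ninaE (1142 R7-like and 996 R8-like cells), a limit that 13.2% of R7-like and 13.3% of R8-like cells lay near (between 1% and 4%). Where the ninaE of the other inner cells came from was not tested, nor was its part in the values of the whole R7-like and R8-like classes.

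All 7 genes were detected in every library and class and passed the filter on low counts. Of these, 3 lie on chromosome arm 3L of the dm6 assembly, namely Gbeta76C (FBgn0004623, 19687637 to 19689992, plus strand), rdgC (FBgn0265959, 20248080 to 20265554, plus strand) and Arr2 (FBgn0000121, 8647261 to 8648936, minus strand). Arr1 (FBgn0000120, 18078269 to 18081307) and Ggamma30A (FBgn0267252, 9256563 to 9302494) lie on the plus strand of 2L. Galphaq (FBgn0004435, 12612740 to 12623197, plus strand) and Gprk1 (FBgn0260798, 4322295 to 4471060, minus strand) lie on 2R. Arr2 overlaps the antisense gene Pex7, which had 470 to 1509 UMIs per library against 1494546 to 5514051 for Arr2, and Galphaq overlaps CG45086 on its own strand, which had 0 UMIs.

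In R1-6-like cells the arrestin Arr2 was the second most counted gene of all in each of the 4 libraries and Ggamma30A the third. Together the 7 genes made up 12.8% of all UMIs of R1-6-like cells in females and 13.2%, 16.2% and 17.2% in 1-, 3- and 7-day males. The subunits of the G protein were far from equal in transcript level. Galphaq stood at 9587 CPM in 1-day females and at 7718, 6720 and 4569 CPM in 1-, 3- and 7-day males (7148 ± 2090, SD, n = 4 libraries). Gbeta76C stood at 3806 CPM in females and 3461, 2485 and 2583 CPM in males (3084 ± 652). Ggamma30A, which encodes the small lipid-anchored gamma subunit, stood at 26050 CPM in females and 29632, 26759 and 23551 CPM in males (26498 ± 2501). No library of one subunit overlapped with any library of another, in the order Ggamma30A over Galphaq over Gbeta76C.

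The arrestins differed from each other even more. Arr2, the more abundant visual arrestin, had 78708 CPM in females and 80514, 114640 and 123290 CPM in 1-, 3- and 7-day males (99287 ± 23005). Arr1, which is also known for carrying rhodopsin into the cell by endocytosis, had 9088 CPM in females and 9877, 10919 and 17993 CPM in males (11969 ± 4085). The enzymes that add and remove phosphates lay far below all of these. Gprk1 had 90.6 CPM in females and 177, 129 and 127 CPM in males (131 ± 35.4), and rdgC had 179 CPM in females and 336, 190 and 220 CPM in males (231 ± 72.0). Within each library rdgC was above Gprk1. In rank among all genes, Gprk1 lay between places 585 and 895 and rdgC between places 397 and 803 over R1-6-like, R7-like and R8-like cells, while Arr2 held place 1 or 2 in all of them.

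**Figure D1:**
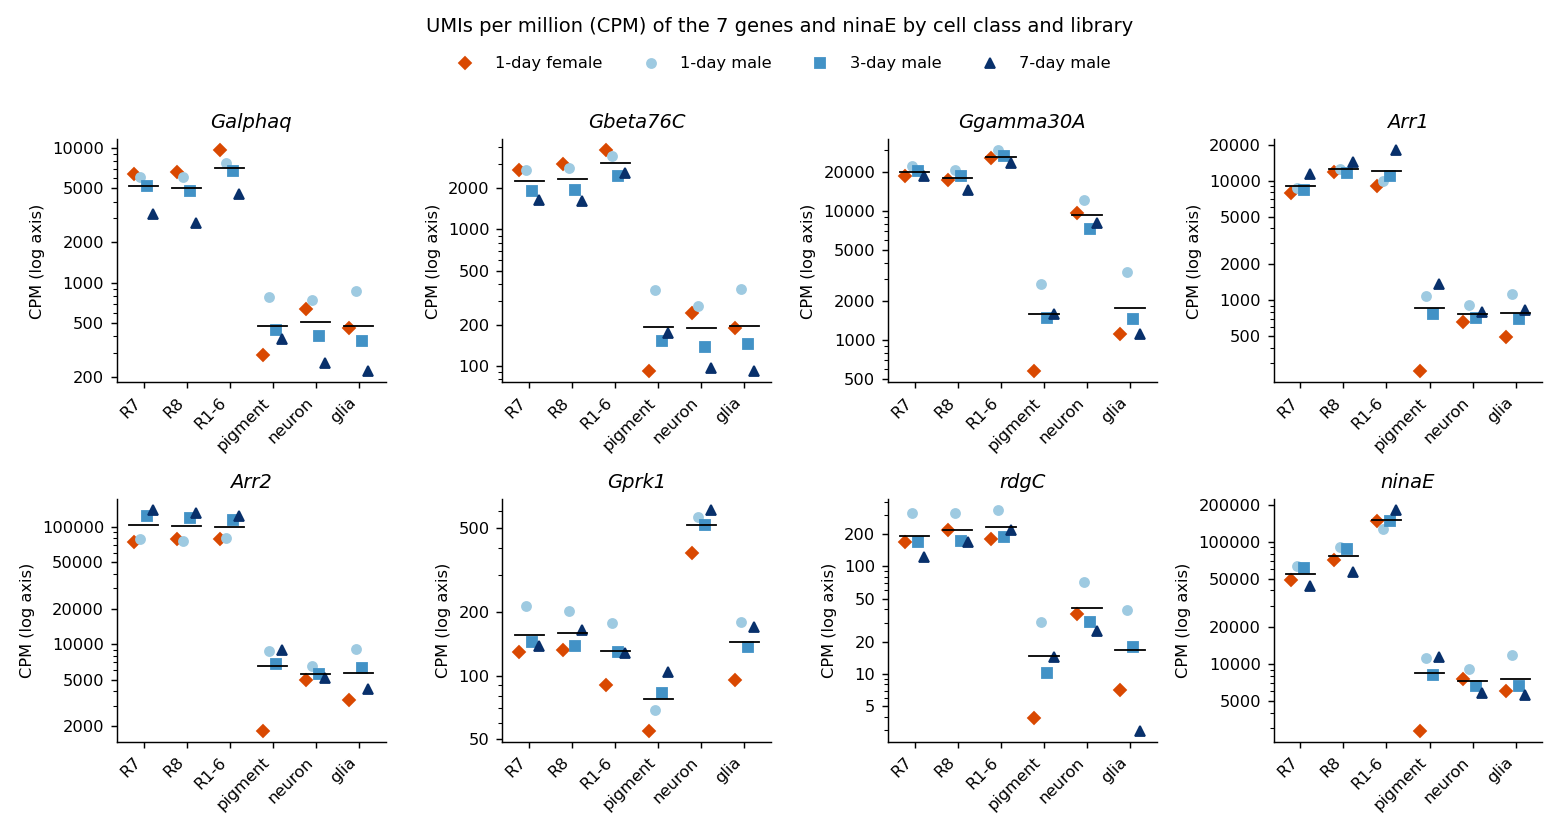
Level of the 7 genes and of ninaE in CPM (log axis) by cell class, 1 point per library and a line at the mean of the 4 libraries. Arr2 lies between 73818 and 139580 CPM in R7-like, R8-like and R1-6-like cells and between 1824 and 8946 CPM in pigment-like and 4930 and 6582 CPM in neuron-like cells, whereas Gprk1 is highest in neuron-like cells (381 to 607 CPM).

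R1-6-like cells were compared with secondary and tertiary pigment-like cells, the screening cells between ommatidia. All 7 genes were higher in R1-6-like cells (edgeR quasi-likelihood test, Benjamini-Hochberg adjusted p under 0.05 and more than 2-fold), where 25.5% of the 7606 genes tested were higher and 27.8% lower. Galphaq had 9587 CPM in R1-6-like cells of females and 7718, 6720 and 4569 CPM in those of 1-, 3- and 7-day males, against 289 CPM and 784, 447 and 385 CPM in pigment-like cells. Its log2 fold change was 4.50 ± 0.27 (SE, edgeR adjusted p = 1.05e-11). Gbeta76C, Ggamma30A, Arr1, Arr2 and rdgC moved by nearly the same factor, with log2 fold changes of 4.64 ± 0.31, 4.76 ± 0.32, 4.48 ± 0.30, 4.63 ± 0.37 and 4.72 ± 0.34. The rhodopsin ninaE itself had a log2 fold change of 4.85 ± 0.35. Gprk1 stood apart with a log2 fold change of 1.34 ± 0.15 (edgeR adjusted p = 5.55e-08). It had 90.6 CPM in R1-6-like cells of females and 177, 129 and 127 CPM in those of males, against 54.7 CPM and 69.1, 82.3 and 104 CPM in pigment-like cells. With libraries scaled by size only, a scaling that moved the median of all genes to -0.57 against 0.02 under TMM, its log2 fold change was 0.75 (edgeR adjusted p = 0.000180), inside the 2-fold limit. The other 6 stayed between 3.88 and 4.15 on that scale.

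Pigment-like cells also held ninaE, at 2843 CPM in females and 11317, 8083 and 11435 CPM in 1-, 3- and 7-day males, a rhodopsin of the outer photoreceptors, so each gene was also counted per ninaE UMI. Per ninaE UMI, pigment-like cells had 0.988 to 1.15 times the rdgC, 1.02 to 1.15 times the Ggamma30A, 1.08 to 1.25 times the Gbeta76C, 1.10 to 1.21 times the Arr2, 1.21 to 1.47 times the Arr1 and 1.14 to 1.58 times the Galphaq of R1-6-like cells. So the 6 genes stood near the ratio to ninaE of R1-6-like cells. All of them but rdgC were above it in 4 of 4 libraries, with Arr1 and Galphaq reaching furthest. How much of their level in pigment-like cells is photoreceptor RNA was not tested. Gprk1 did not follow ninaE, at 4.37 to 31.6 times the ratio of R1-6-like cells. Its level in pigment-like cells was 32.0% to 53.5% of that over all barcodes of the library, against 2.90% to 15.7% for the other 6 genes and 2.95% to 14.7% for ninaE.

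Neuron-like cells are cells of the nervous tissue that stays attached to a dissected eye, such as the lamina below the retina. Against them, 6 of the 7 genes were higher in R1-6-like cells (20.7% of all 7606 genes were higher and 25.0% lower), and Gprk1 was not. Galphaq, Gbeta76C, Arr1 and Arr2 had log2 fold changes of 5.05 ± 0.28, 5.30 ± 0.32, 5.09 ± 0.31 and 5.31 ± 0.38 (edgeR adjusted p at most 9.05e-11), beside 5.59 for ninaE. In neuron-like cells these 4 genes had 1.08 to 1.73 times the count per ninaE UMI of R1-6-like cells, with all 4 above 1 in each library. How much of that level is photoreceptor RNA was not tested. The phosphatase rdgC had 179 CPM in R1-6-like cells of females and 336, 190 and 220 CPM in those of males, against 36.2 CPM and 72.1, 30.4 and 24.9 CPM in neuron-like cells. Its log2 fold change was 3.73 ± 0.32 (edgeR adjusted p = 1.32e-09). Its count per ninaE UMI in neuron-like cells was 2.98 to 4.01 times that of R1-6-like cells, further from 1 than for these 4 genes in each library.

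Of the G protein subunits among the 7 genes, Ggamma30A was the one whose level in neuron-like cells came nearest to that in R1-6-like cells. It had 26050 CPM in R1-6-like cells of females and 29632, 26759 and 23551 CPM in those of 1-, 3- and 7-day males, against 9734 CPM and 12271, 7271 and 8125 CPM in neuron-like cells. The means were 26498 ± 2501 and 9350 ± 2199 CPM (SD, n = 4 libraries). The log2 fold change was 2.70 ± 0.29 (edgeR adjusted p = 4.03e-08) and the groups did not overlap. With library size only it was 1.52, and after removal of 10% of each class sum as free RNA the fold change was no longer called (edgeR adjusted p = 0.141). That removal took all Ggamma30A counts from pigment-like cells of females and 3-day males, whose level was 3.02% and 7.70% of that over all barcodes. It did the same in glia-like cells of all libraries but 1-day males. These sums share 1 estimate of the spread with the neuron-like ones, and their part in the lost call was not tested. In neuron-like cells Ggamma30A was still between place 6 and place 9 among all genes, its count per ninaE UMI was 5.75 to 10.7 times that of R1-6-like cells, and its level was 37.5% to 61.0% of that over all barcodes.

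Cell by cell the same held. After each cell was thinned to 1000 UMIs, at least 1 Ggamma30A UMI was found in 92.8% of neuron-like cells of females and 92.9%, 90.2% and 94.3% of those of 1-, 3- and 7-day males. The share in pigment-like cells was 29.4% in females and 51.8%, 28.8% and 32.2% in males. It is not a matched background, since ninaE was lower in pigment-like than in neuron-like cells of females and higher in those of 7-day males. Without thinning the shares were 96.0%, 95.7%, 92.3% and 93.7% in neuron-like cells and 64.1%, 79.2%, 46.5% and 42.04% in pigment-like cells, at median depths of 7124, 4225, 3340 and 3293 UMIs and 5205, 1673, 2376 and 1251 UMIs. Thinning left out 28, 93, 57 and 65 neuron-like and 12, 1206, 186 and 427 pigment-like cells under 1000 UMIs. The gap between neuron-like and pigment-like cells was thus present at equal depth.

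The receptor kinase Gprk1 ran the other way from every other member. It had 90.6 CPM in R1-6-like cells of females and 177, 129 and 127 CPM in those of males, against 381 CPM and 560, 516 and 607 CPM in neuron-like cells. The means were 131 ± 35.4 and 516 ± 97.4 CPM (SD, n = 4 libraries), and no R1-6-like library reached a neuron-like one. Its log2 fold change was -0.82 ± 0.14 (edgeR adjusted p = 3.09e-05), past the limit on p but inside that of 2-fold under TMM. It was called lower in R1-6-like cells with library size only (-1.99) and after removal of 10% free RNA (-1.04), and under library size only the median of all genes was -1.15. Thinned to 1000 UMIs, 7.91% of R1-6-like cells of females and 15.8%, 10.3% and 9.94% of those of males held a Gprk1 UMI, against 35.3% and 47.6%, 42.4% and 46.9% of neuron-like cells. In pigment-like cells the share was 5.92% and 6.68%, 7.85% and 9.59%, which is no measure of background for Gprk1, since its level there did not follow ninaE. Without thinning the shares were 52.3% and 62.9%, 39.4% and 24.2% in R1-6-like cells, 83.1% and 88.2%, 75.2% and 80.4% in neuron-like cells and 27.8% and 16.4%, 20.4% and 16.8% in pigment-like cells. The share in thinned R1-6-like cells of 7-day males (9.94%) was thus close to that in pigment-like cells (9.59%).

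Among the 27 neuron-like clusters Ggamma30A varied widely, between 3039 and 20757 CPM (median 8943), and Gprk1 less so, between 294 and 765 CPM (median 541). Per 100 ninaE UMIs, Ggamma30A had 11.1 to 34.9 UMIs in the 23 R1-6-like, 13.1 to 33.7 in the 12 pigment-like and 12.6 to 61.8 in the 10 glia-like clusters, against 16.7 to 577 in neuron-like clusters (median 90.5), so the lowest neuron-like clusters overlapped with the others. Gprk1 had 54.6 to 479 CPM in R1-6-like, 51.9 to 304 CPM in pigment-like and 80.1 to 234 CPM in glia-like clusters, so its lowest neuron-like cluster overlapped with the highest R1-6-like and pigment-like ones. Clusters of 1 library share that library and are not replicates.

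**Figure D2:**
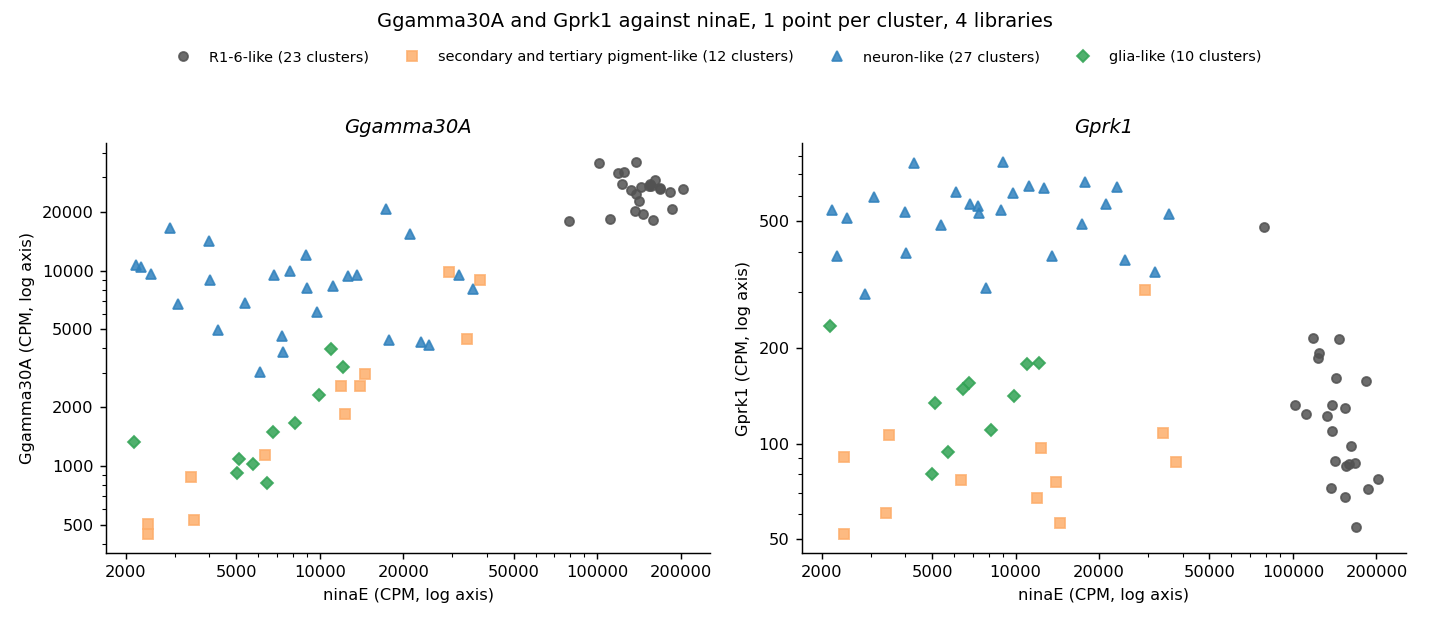
Ggamma30A (left) and Gprk1 (right) against ninaE, all in CPM on log axes, with 1 point per cluster of any library and the class given by colour and shape. Pigment-like clusters lie on a line of Ggamma30A with ninaE that leads to the R1-6-like clusters, and most neuron-like clusters (3039 to 20757 CPM) lie above it, with the lowest (16.7 UMIs per 100 ninaE UMIs) on it; Gprk1 shows no such line with ninaE.

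Pigment-like and neuron-like cells were also compared with each other, since both lie below photoreceptors. Ggamma30A and Gprk1 were lower in pigment-like cells, with log2 fold changes of -2.05 ± 0.28 (edgeR adjusted p = 1.15e-06) and -2.16 ± 0.15 (edgeR adjusted p = 4.61e-11), where 28.1% of all genes were higher and 31.3% lower, so 2 lower of 7 is near that background. Gprk1 had 54.7 CPM in pigment-like cells of females and 69.1, 82.3 and 104 CPM in those of males, against 381 CPM and 560, 516 and 607 CPM in neuron-like cells. The other 5 genes did not pass both limits, and rdgC came nearest (log2 fold change -0.98, edgeR adjusted p = 0.00861). The count depended on the cells kept. Without the cells most likely to be doublets 6 genes were called, Gbeta76C (1.07), Arr1 (1.01) and Arr2 (1.17) as higher and Ggamma30A (-2.56), Gprk1 (-2.26) and rdgC (-1.43) as lower. Over all 7553 genes tested there, 2187 were higher and 2423 lower. Without the 1-day female library 4 genes were called, where 2074 of 7588 genes were higher and 2352 lower. In glia-like cells, marked by repo, Gprk1 had 95.0 CPM in females and 179, 136 and 169 CPM in males, and its count per ninaE UMI was 10.8 to 43.3 times that of R1-6-like cells.

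R7 and R8 lie in the same ommatidium as R1-6 but carry other rhodopsins, and the next comparison asks whether they carry the same shut-off machinery. Taken as whole classes, none of the 7 genes was called between R7-like and R1-6-like cells (0 of 7 at both limits, with 4.48% of all genes higher and 3.42% lower). The same held between R8-like and R1-6-like cells (0 of 7, with 4.59% higher and 3.23% lower). In the first comparison 5 genes had an unadjusted p under 0.05, and 4 of them an adjusted one with less than a 2-fold change. All pointed to lower levels in R7-like cells (Galphaq -0.88, Gbeta76C -0.89, Ggamma30A -0.82 and Arr1 -0.78, edgeR adjusted p between 0.00949 and 0.0339). In R8-like cells 3 genes had an unadjusted p under 0.05, Galphaq (-0.88), Gbeta76C (-0.78) and Ggamma30A (-0.93), with edgeR adjusted p between 0.00949 and 0.0393. DESeq2 called 0 of the 7 in both comparisons. The median log2 fold change of all genes was -0.18 in R7-like and -0.14 in R8-like cells under TMM and 0.22 and 0.19 with library size only. Galphaq stood at -0.46 and -0.52 with library size only, so it lay below the median gene on both scales.

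In CPM, Arr2 was near an equal level in inner and outer cells. It had 73818 CPM in R7-like cells of females and 78591, 124140 and 139580 CPM in those of 1-, 3- and 7-day males. In R8-like cells it had 79242 CPM and 75631, 118590 and 132360 CPM, and in R1-6-like cells 78708 CPM and 80514, 114640 and 123290 CPM. The ratio of R7-like over R1-6-like cells was 0.938 in females and 0.976, 1.08 and 1.13 in males, and that of R8-like cells was 1.01 in females and 0.939, 1.03 and 1.07 in males, so the direction changed between libraries. Its log2 fold change was -0.37 in R7-like and -0.33 in R8-like cells under TMM and 0.05 and 0.03 with library size only. Galphaq by contrast had 6429 CPM in R7-like cells of females and 6034, 5178 and 3226 CPM in those of males, against 9587 CPM and 7718, 6720 and 4569 CPM in R1-6-like cells, which is lower in 4 of 4 libraries.

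In inner photoreceptors with under 2% ninaE the 3 subunits of the G protein were lower than in R1-6-like cells. Between R7-like and R1-6-like cells 5 of the 7 genes were called lower, in a background of 6.15% of genes higher and 10.1% lower. These were Galphaq (log2 fold change -1.32 ± 0.27), Gbeta76C (-1.31 ± 0.29), Ggamma30A (-1.19 ± 0.29), Arr1 (-1.23 ± 0.29) and rdgC (-1.16 ± 0.30), with edgeR adjusted p between 0.000558 and 0.00407. Between R8-like and R1-6-like cells 3 of the 7 were called lower, in a background of 6.16% higher and 11.1% lower. These were Galphaq (-1.83 ± 0.27), Gbeta76C (-1.41 ± 0.29) and Ggamma30A (-1.73 ± 0.30), with edgeR adjusted p of 2.02e-05, 0.000690 and 0.000103. Arr1 in R8-like cells lay just inside the 2-fold limit (-0.995, edgeR adjusted p = 0.00970). Arr2 was called in neither (-0.49 and -0.56, edgeR adjusted p = 0.287 and 0.222), nor was Gprk1 (-0.14 and -0.06). These calls depend on the scale. With library size only the median of all genes moved to 0.34 in R7-like and 0.48 in R8-like cells (under TMM -0.22 and -0.20). Then 0 of 7 were called in R7-like cells (with 14.0% of genes higher and 3.1% lower) and 2 of 7 in R8-like cells, Galphaq (-1.16) and Ggamma30A (-1.06), where 17.6% were higher and 2.94% lower. Without the 7-day male library 3 were called in R7-like cells, the subunits alone. DESeq2 called 3 in R7-like (8.04% higher and 6.78% lower) and 3 in R8-like cells (8.83% higher and 6.97% lower).

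The levels behind these calls were as follows. Galphaq had 5219 CPM in R7-like cells under 2% ninaE of females and 4625, 4110 and 2901 CPM in those of 1-, 3- and 7-day males, and 4156 CPM and 3176, 2758 and 2419 CPM in R8-like cells. This is 0.544, 0.599, 0.612 and 0.635 times (R7-like) and 0.434, 0.412, 0.410 and 0.529 times (R8-like) the R1-6-like level of the same library. Ggamma30A had 16682 CPM in R7-like cells of females and 17408, 16649 and 17662 CPM in males, and 13438 CPM and 13749, 11338 and 12149 CPM in R8-like cells, against 26050 CPM and 29632, 26759 and 23551 CPM in R1-6-like cells. Gbeta76C had 2300 CPM in R7-like cells of females and 2000, 1684 and 1388 CPM in males, and 2515 CPM and 1967, 1526 and 1377 CPM in R8-like cells, against 3806 CPM and 3461, 2485 and 2583 CPM in R1-6-like cells. For none of the 3 subunits did an inner class reach the level of the R1-6-like cells of its library.

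A comparison of genes within a library does not depend on how libraries are scaled. Arr2 stood at 0.941, 0.969, 1.12 and 1.17 times the R1-6-like level in R7-like cells of 1-day females and 1-, 3- and 7-day males and at 1.09, 0.998, 1.06 and 1.13 times in R8-like cells. In each library this was above the ratios of Galphaq, Gbeta76C and Ggamma30A. Gprk1 was higher still, at 1.44, 1.44, 1.29 and 1.19 times in R7-like and 1.70, 1.56, 1.34 and 1.52 times in R8-like cells. Its fitted change was -0.14 (R7-like) and -0.06 (R8-like) under TMM but 0.43 and 0.61 with library size only (edgeR adjusted p = 0.0348 and 0.00419), inside the 2-fold limit on both scales. The phosphatase rdgC stood at 0.725, 0.701, 0.856 and 0.448 times in R7-like cells but at 1.52, 1.13, 1.06 and 0.896 times in R8-like cells.

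**Figure D3:**
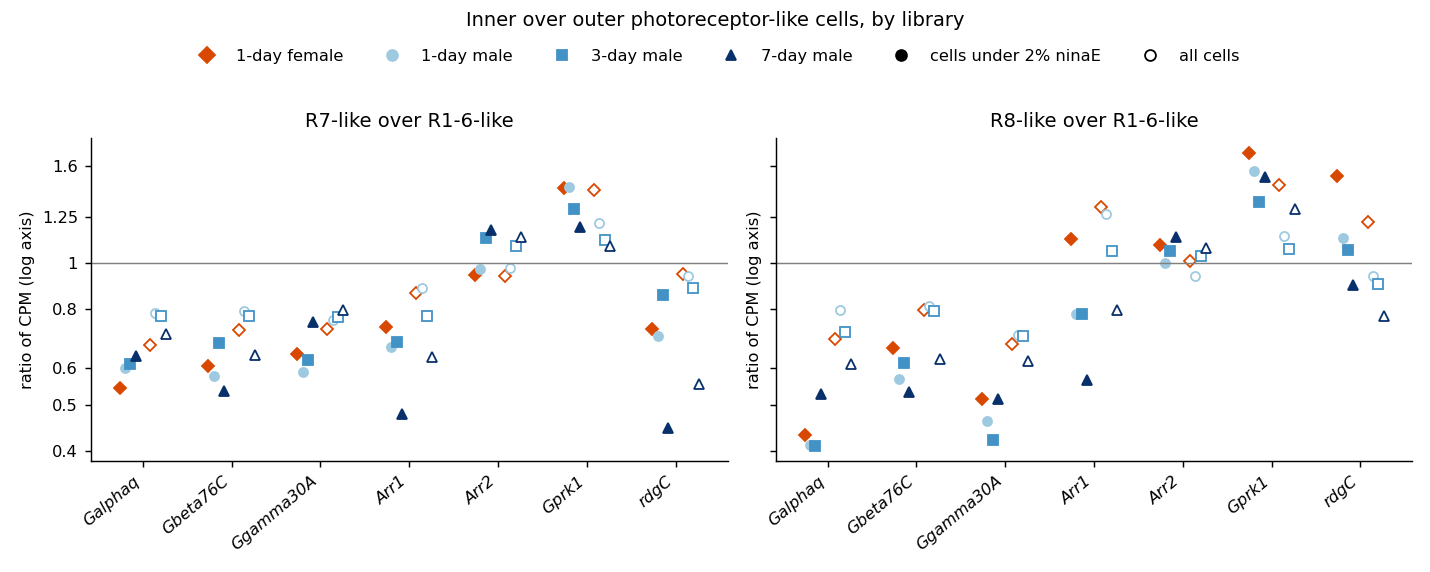
Ratio of the CPM of R7-like (left) and R8-like (right) cells over that of R1-6-like cells (log axis) for each of the 7 genes, with filled points for cells under 2% ninaE and open points for all cells, 1 point per library. In cells under 2% ninaE Galphaq lies between 0.544 and 0.635 in R7-like and between 0.410 and 0.529 in R8-like cells, and Arr2 between 0.941 and 1.17 and between 0.998 and 1.13.

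None of the 7 genes was called between R7-like and R8-like cells (0 of 7 called, with 1.16% of all genes higher in R7-like cells and 0.999% lower, and 0 of 7 at an unadjusted p under 0.05 or in DESeq2). The widest gap was in Arr1 (log2 fold change -0.54 ± 0.26, with the SE from the fit of all 6 classes, edgeR adjusted p = 0.359). It had 7850 CPM in R7-like cells of females and 8736, 8419 and 11371 CPM in those of males, against 11900 CPM and 12490, 11561 and 14317 CPM in R8-like cells, and was lower in R7-like cells in 4 of 4 libraries. In cells under 2% ninaE no gene was called either (1.34% higher and 1.07% lower), with 1 of 7 at an unadjusted p under 0.05 (rdgC). There Galphaq was 1.26, 1.46, 1.49 and 1.1995 times and Ggamma30A 1.24, 1.27, 1.47 and 1.45 times as high in R7-like as in R8-like cells, and rdgC 0.476, 0.621, 0.806 and 0.4997 times. Pale and yellow cells were compared within each type. None of the 7 genes was called between pale and yellow R7-like cells (0.482% of 5391 genes higher and 0.427% lower) or between pale and yellow R8-like cells (0.352% higher and 0.445% lower). In each of the comparisons 1 gene had an unadjusted p under 0.05, and DESeq2 called 0. The largest of these changes was -0.31 ± 0.11 for rdgC in pale over yellow R8-like cells (edgeR adjusted p = 0.255).

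The amount of each gene was next set against the rhodopsin it serves, with both counted in the same cells, so that the scaling of libraries cancels out. Per 100 ninaE UMIs, R1-6-like cells had 6.44 Galphaq UMIs in females and 6.10, 4.53 and 2.51 in 1-, 3- and 7-day males (4.89 ± 1.79, SD, n = 4 libraries). They had 17.5 Ggamma30A UMIs in females and 23.4, 18.05 and 12.9 in males (17.97 ± 4.29), and 2.56 Gbeta76C UMIs in females and 2.74, 1.68 and 1.42 in males (2.10 ± 0.647). Arr2 came near to its rhodopsin in number, with 52.8 UMIs in females and 63.6, 77.3 and 67.7 in males (65.4 ± 10.1), and Arr1 had 6.10 in females and 7.81, 7.36 and 9.88 in males (7.79 ± 1.57). Gprk1 and rdgC had 0.0608 and 0.120 UMIs in females and 0.0699 to 0.140 and 0.121 to 0.266 in males, so transcripts of the kinase and the phosphatase were rare beside those of rhodopsin.

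In pale R7-like cells with under 2% ninaE, set against Rh3, the G protein was present at a lower ratio than in R1-6-like cells in 4 of 4 libraries. Galphaq had 2.23 UMIs per 100 Rh3 UMIs in pale R7-like cells of females and 2.45, 2.25 and 1.63 in those of 1-, 3- and 7-day males, against 6.44 and 6.10, 4.53 and 2.51 per 100 ninaE UMIs in R1-6-like cells. The geometric mean ratio was 0.46. Gbeta76C, Ggamma30A, Arr1 and rdgC had ratios of 0.46, 0.50, 0.47 and 0.51, each lower in 4 of 4 libraries. The exact sign-flip permutation test gave a 2-sided p of 0.125 for each, the smallest that 4 libraries can give (adjusted p = 0.181 over 42 comparisons). Yellow R7-like cells, set against Rh4, had ratios of 0.56, 0.55, 0.61 and 0.59 for Galphaq, Gbeta76C, Ggamma30A and Arr1, again lower in 4 of 4. The ratio of Arr2 was 0.82 times in pale and 0.97 times in yellow R7-like cells.

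R8-like cells with under 2% ninaE split by subtype. Yellow R8-like cells, set against Rh6, had 2.73 Galphaq UMIs in females and 2.19, 1.96 and 1.30 in males per 100 Rh6 UMIs. This was 0.43 times the ratio of R1-6-like cells, with Ggamma30A at 0.47 times and Gbeta76C at 0.59 times, each lower in 4 of 4 libraries. Pale R8-like cells, set against Rh5, had 4.19 Galphaq UMIs in females and 3.31, 3.02 and 2.51 in males per 100 Rh5 UMIs. This was 0.70 times the ratio of R1-6-like cells and lower in 3 of 4, the 7-day library being level (2.51 in both). Gprk1 per rhodopsin was 1.90 times as high in pale and 1.53 times as high in yellow R8-like as in R1-6-like cells, in 4 of 4 libraries. Pale over yellow R8-like cells gave ratios above 1 in 4 of 4 libraries for 6 genes (1.17 for Arr1 to 1.62 for Galphaq) and 0.95 for rdgC. Pale over yellow R7-like cells gave ratios of 0.81 to 0.85, lower in 4 of 4, for the 6 genes other than Gprk1 (1.04). Pale R8-like cells of this kind numbered only 48 in females and 33, 26 and 41 in males, and none of the 42 comparisons could pass an adjusted p of 0.05.

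These ratios carry the level of the rhodopsin as well as that of the gene. In the cells under 2% ninaE the main rhodopsin averaged 192350 ± 22292 CPM for Rh3 in pale R7-like, 168590 ± 35357 CPM for Rh4 in yellow R7-like and 114450 ± 9410 CPM for Rh5 in pale R8-like cells. It averaged 152820 ± 16562 CPM for Rh6 in yellow R8-like cells, beside 151460 ± 22927 CPM for ninaE in R1-6-like cells (SD, n = 4 libraries). The share of ninaE changed the picture. Over all pale R8-like cells (74 in females and 109, 71 and 67 in males) all 7 genes per Rh5 UMI stood above R1-6-like cells (1.61 to 2.66 times, 4 of 4 libraries, exact 2-sided p = 0.125, adjusted p = 0.276). In pale R7-like cells as a whole, Galphaq stood at 0.85 times and Arr2 at 1.22 times the ratio of R1-6-like cells. In yellow R7-like cells as a whole Galphaq stood at 1.01 times (higher in 3 of 4 libraries). Pale over yellow R7-like cells as a whole gave ratios above 1 in 2 libraries and below 1 in 2 for each gene but Arr1. Arr1 was lower in 3 of 4. Yellow R8-like cells as a whole turned the direction, with Galphaq at 1.26, Gbeta76C at 1.36 and Ggamma30A at 1.22 times the ratio of R1-6-like cells (each higher in 3 of 4 libraries).

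**Figure D4:**
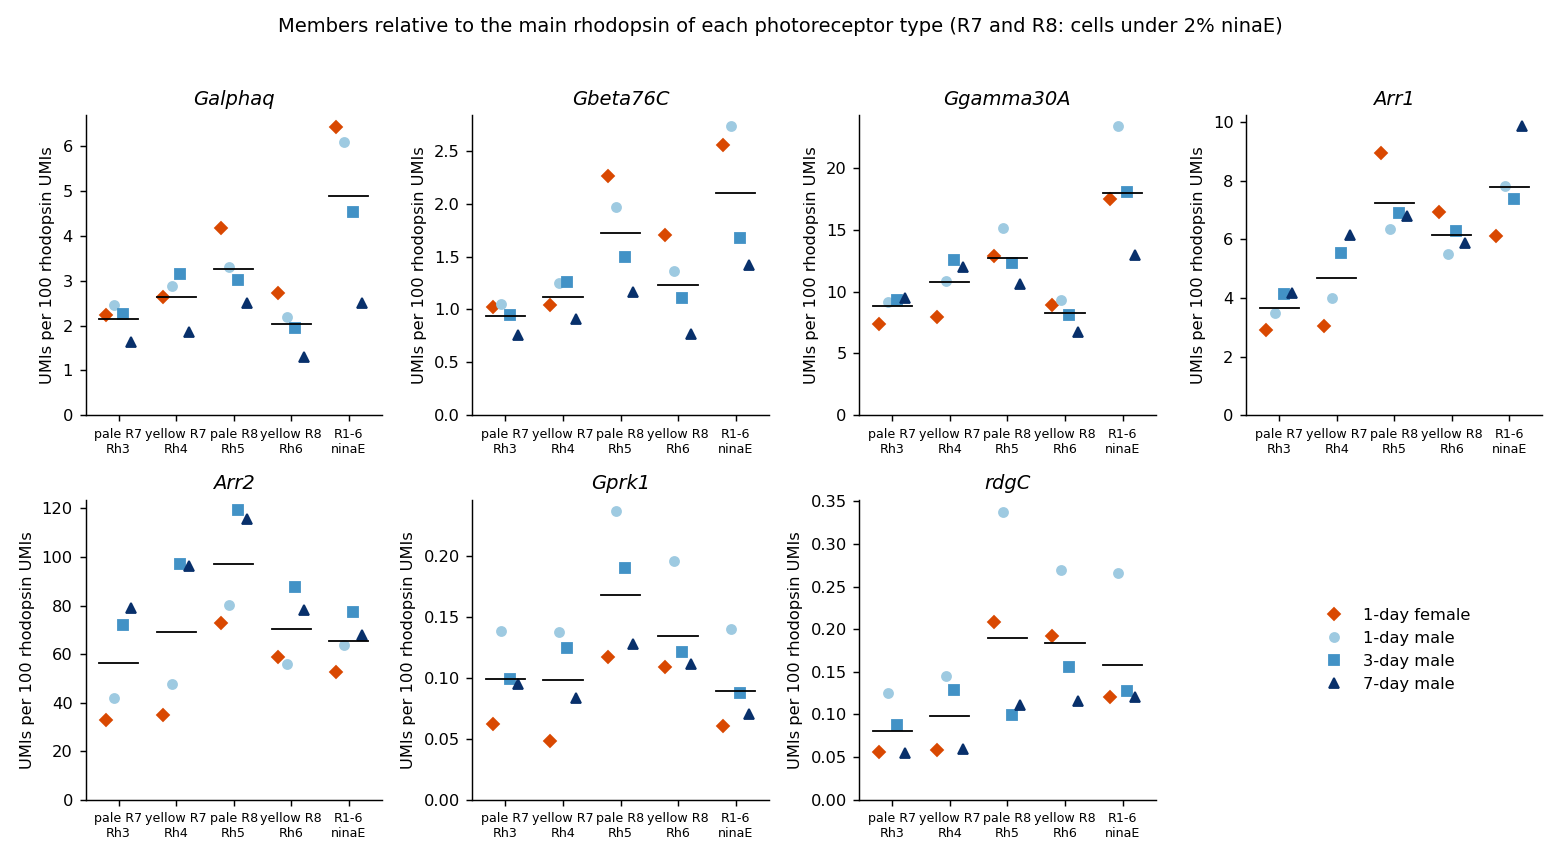
UMIs of each gene per 100 UMIs of the main rhodopsin (Rh3, Rh4, Rh5, Rh6 or ninaE) in pale and yellow inner cells with under 2% ninaE and in R1-6-like cells, 1 point per library and a line at the mean. Galphaq averages 2.14 in pale R7-like, 2.64 in yellow R7-like, 3.26 in pale R8-like and 2.05 in yellow R8-like cells beside 4.89 in R1-6-like cells, and Arr2 averages 56.4, 69.0, 97.0 and 70.2 beside 65.4.

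Ratios among the 7 genes need no scaling. The balance of the arrestins was tilted to Arr2 in every photoreceptor class, most of all in R7-like cells. They had 9.40 Arr2 UMIs per Arr1 UMI in females and 8.997, 14.7 and 12.3 in 1-, 3- and 7-day males, against 8.66 and 8.15, 10.5 and 6.85 in R1-6-like cells, which is 1.32 times as many and more in 4 of 4 libraries. Against R8-like cells, with 6.66 in females and 6.06, 10.3 and 9.25 in males, the R7-like ratio was 1.41 times as high, above 1 in 4 of 4 libraries (exact sign-flip permutation test, 2-sided p = 0.125, adjusted p = 0.208 over 35 comparisons). In cells under 2% ninaE it was 1.22 times as high. Within the G protein, Galphaq per Gbeta76C UMI was 1.65 in R8-like cells under 2% ninaE of females and 1.61, 1.81 and 1.76 in males, against 2.52 and 2.23, 2.70 and 1.77 in R1-6-like cells, 0.75 times as many. In neuron-like cells Ggamma30A outnumbered Gbeta76C by 40.1 to 1 in females and 44.4, 53.0 and 83.6 to 1 in males, against 6.84 and 8.56, 10.8 and 9.12 to 1 in R1-6-like cells. Gprk1 per 1000 Arr2 UMIs was 1.80 in R8-like cells under 2% ninaE of females and 3.43, 1.43 and 1.38 in males, against 1.15 and 2.197, 1.13 and 1.03 in R1-6-like cells, higher in 4 of 4 libraries (1.43 times).

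With age, Arr2 and the G protein went opposite ways in male photoreceptor-like cells taken as whole classes. There is 1 library per age, so these are ratios of 2 libraries with no replicate, and their 95% intervals (exact, binomial) cover counting error only. Arr2 in R1-6-like cells of 3-day males was 1.42 times and in those of 7-day males 1.53 times the level of 1-day males, and it was 1.58 and 1.78 times in R7-like and 1.57 and 1.75 times in R8-like cells. Galphaq was 0.871 and 0.592 times in R1-6-like, 0.858 and 0.535 times in R7-like and 0.783 and 0.456 times in R8-like cells (0.442 to 0.471 for the last). Gbeta76C followed Galphaq at 0.718 and 0.746 times in R1-6-like, 0.702 and 0.603 times in R7-like and 0.699 and 0.577 times in R8-like cells. Of the 3 subunits Ggamma30A stayed nearest to 1, at 0.903 and 0.795 times, 0.917 and 0.836 times and 0.899 and 0.701 times. In R7-like cells under 2% ninaE Ggamma30A was near level, at 17408, 16649 and 17662 CPM in 1-, 3- and 7-day males. In R8-like cells under 2% ninaE it was lower at both older ages, at 13749, 11338 and 12149 CPM. Arr1 was level or lower at 3 days in the inner cells (0.964 times in R7-like, 0.926 times in R8-like) and 1.82, 1.30 and 1.15 times the 1-day level at 7 days in R1-6-like, R7-like and R8-like cells. Lower levels with age were not particular to the G protein. A list of 19 other phototransduction genes had median ratios of 0.636, 0.674 and 0.630 in these 3 classes at 3 days. At 7 days the medians were 0.708, 0.647 and 0.677.

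In photoreceptor-like cells Gprk1 and rdgC were lower in both older male libraries. Gprk1 stood at 0.731 and 0.719 times the 1-day male level in R1-6-like cells of 3- and 7-day males, at 0.673 and 0.643 times in R7-like and at 0.687 and 0.819 times in R8-like cells. The phosphatase rdgC stood at 0.564 and 0.655 times in R1-6-like, 0.533 and 0.388 times in R7-like (0.339 to 0.442 for the last) and 0.543 and 0.539 times in R8-like cells. Outside photoreceptor-like cells Gprk1 did not share this, at 1.19 and 1.501 times the 1-day male level in pigment-like and 0.922 and 1.08 times in neuron-like cells. Of the 21 combinations of gene and photoreceptor class, 0 were past 2-fold at 3 days and 2 at 7 days, Galphaq in R8-like and rdgC in R7-like cells. Over all genes with at least 200 UMIs in the same 3 classes, 1.24% of combinations were more than 2-fold higher and 11.4% lower at 3 days, and 2.69% higher and 13.8% lower at 7 days, so 2 lower of 21 is near that background. Past 1.5-fold there were 5 at 3 days (2 higher and 3 lower, with 7.37% of all combinations higher and 27.8% lower) and 13 at 7 days (4 higher and 9 lower, with 10.4% higher and 30.4% lower). In inner cells with under 2% ninaE, Arr2 at 7 days was 1.85 times the 1-day level in R7-like and 1.74 times in R8-like cells, but Galphaq in R8-like cells was 0.761 times and so inside the 2-fold limit. That left 1 of 21, rdgC in R7-like cells (0.418 times), where 2.32% of all combinations were higher and 12.8% lower. Depth moved with age too, since the median R1-6-like cell had 7103 UMIs in 1-day, 3897 in 3-day and 1929 in 7-day males, and its part in these ratios was not tested.

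**Figure D5:**
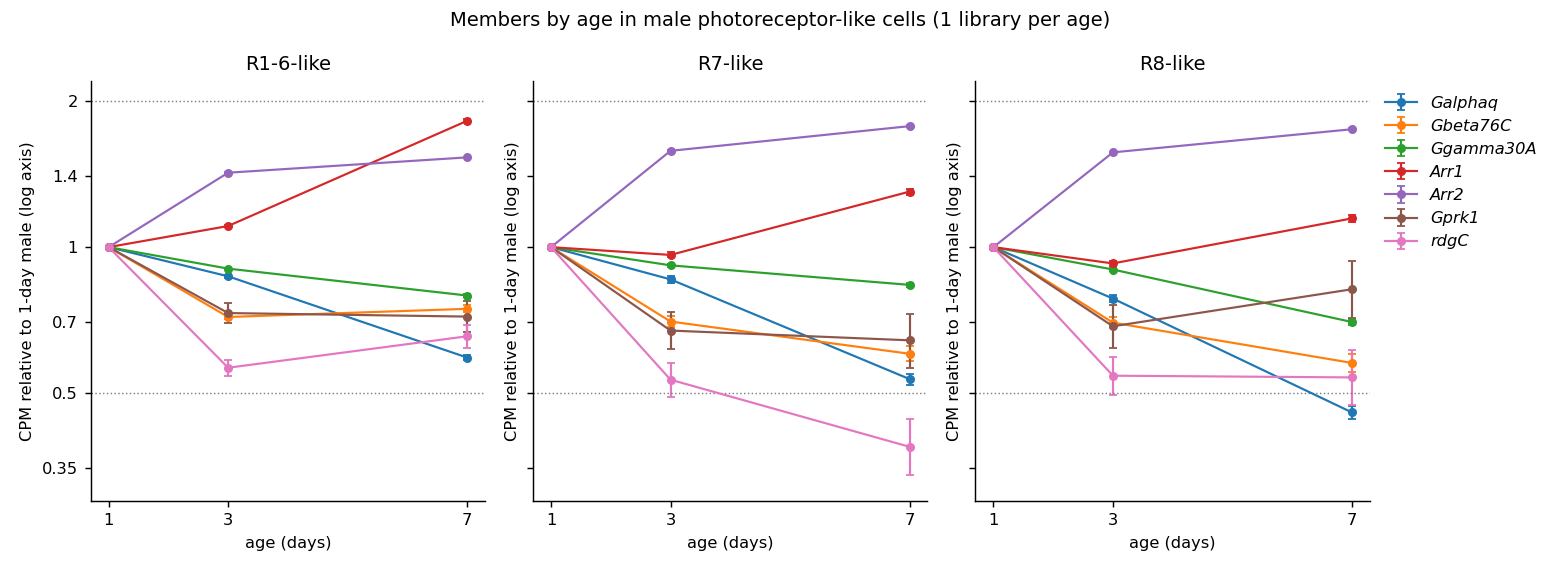
CPM of each gene in 3-day and 7-day males relative to 1-day males (log axis) against age in days, in R1-6-like, R7-like and R8-like cells, with bars for the 95% counting interval and dotted lines at 2-fold. Arr2 is above 1 at 3 and 7 days in all 3 classes (1.42 to 1.78) and Galphaq below 1 (0.456 to 0.871).

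Between the sexes the G protein and arrestins were close. In R1-6-like cells of 1-day females Galphaq was 1.24 times, Gbeta76C 1.10 times, Ggamma30A 0.879 times, Arr1 0.920 times and Arr2 0.978 times the level of 1-day males. The largest gaps were in Gprk1, at 0.512 times (0.490 to 0.535), and rdgC, at 0.533 times (0.516 to 0.550). In R7-like cells these were 0.601 and 0.538 times, and in R8-like cells 0.657 and 0.693 times. None of the 21 combinations was past 2-fold (0.928% of all were higher and 8.47% lower). Past 1.5-fold there were 5, all lower in females, where 3.72% were higher and 20.6% lower. A sex difference cannot be told apart from a difference between 2 libraries.

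Other genes of the visual cascade were divided between the classes in a like way. Of a list of 19 other phototransduction genes, 17 were higher in R1-6-like than in neuron-like cells (median log2 fold change 4.75, beside -0.0034 for all genes, of which 20.7% were higher), and 18 were higher and 1 lower than in pigment-like cells (median 4.46, with 25.5% of all genes higher and 27.8% lower). The exception was laza, a lipid phosphate phosphatase, with a log2 fold change of -6.38 against pigment-like cells. Between inner and outer cells the list lay as the G protein did. In R7-like over R1-6-like cells 0 of 19 were called by edgeR or DESeq2 (median -0.69), with 15 at an unadjusted edgeR p under 0.05. With under 2% ninaE 10 were called lower, where 10.1% of all genes were, namely Calx, Cds, chp, inaD, ninaA, ninaC, norpA, rtp, trp and trpl. In R8-like over R1-6-like cells 2 were called lower, where 3.23% of all genes were, Cds (-1.22), a CDP-diacylglycerol synthase, and the channel trpl (-1.2025). With under 2% ninaE 11 of the list were called lower there, beside 11.1% of all genes.

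Genes for other G protein subunits, kinases and arrestins were set beside these. Of 14 listed, 13 were tested, and, where 20.7% of all genes were higher and 25.0% lower, against neuron-like cells 1 was higher in R1-6-like cells, the G alpha chaperone ric8a (1.19), while 6 were lower. These were Galphao (-3.51), the main alpha subunit of fly neurons, Galphas (-1.56), CaMKII (-1.59), the other receptor kinase Gprk2 (-2.34), the non-visual arrestin krz (-2.07) and RSG7 (-7.68), a regulator of G protein signalling. Galphao averaged 11.7 CPM in R1-6-like and 298 CPM in neuron-like cells, Gprk2 averaged 22.8 and 250 CPM and krz 4.47 and 40.9 CPM. The other gamma subunit, Ggamma1, averaged 1272 CPM in R1-6-like and 1453 CPM in neuron-like cells, so Gprk1 and Ggamma30A were not the only receptor kinase and gamma subunit counted in neuron-like cells. Against pigment-like cells, where 25.5% of all genes were higher and 27.8% lower, 4 of the 13 were higher in R1-6-like cells, a share near that background (CaMKII 2.53, Gbeta5 2.37, ric8a 2.37 and Ggamma1 1.77) and 6 lower, the lowest being Galphai (-6.01) and loco (-5.37), an RGS protein. None was called in R7-like over R1-6-like cells by edgeR or DESeq2 (4 at an unadjusted edgeR p under 0.05), and loco was higher in R8-like cells (2.02).

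Each gene was last matched with the genes whose level over the 24 sums of class and library was most like its own (Pearson r of log2(CPM + 10) among 2175 genes, a description across sums that share libraries). Galphaq and Gbeta76C had each other as nearest gene (r = 0.996), with rtp (0.992 and 0.994) next. Arr2 was nearest to the rhodopsin chaperone ninaA (0.997), followed by Crg-1 and Pph13 (both 0.992), and Arr1 to Arr2 and ninaA (both 0.990). The phosphatase rdgC was nearest to Culd (0.985), norpA (0.984) and the sodium-calcium exchanger Calx (0.973). Ggamma30A was nearest to CG17378 (0.984), PsGEF (0.979) and Cam (0.979), which encodes calmodulin. Gprk1 was nearest to Ssdp (0.973), Ubr3 (0.970) and vib (0.968), and its r with the other 6 genes lay between -0.17 and 0.32.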

How the data were processed

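The deposited files hold UMI counts per gene and cell barcode, made by the authors with Cell Ranger 6.0.1 on the dm6 assembly (submitters' processing notes) before any removal of free RNA or doublets, with no normalization. Cells were kept by the study's limits, over 200 genes and under an upper limit per library (3500, 2800, 2700 and 4000 genes and 20%, 25%, 18% and 25% mitochondrial UMIs in 1-, 3- and 7-day males and 1-day females). Each library was clustered with Seurat 5.3.0 and sctransform 0.4.2 (50 components, resolution 0.8) after the 7 genes were taken out. A marker was raised where a cluster had over 2 times the mean of the other eye clusters after 20 CPM was added to both. Clusters with R7 or R8 markers (at least 3 raised), pigment markers (at least 50% of the list raised), neuron or glia markers (at least 3 raised) or ninaE (at least 50% of the highest cluster) were named from these, and mixed clusters (2624 cells), unnamed clusters (3925 cells) and primary pigment- or cone-like clusters (440 cells, none in females) were left out. Pale and yellow cells needed 5 UMIs of their rhodopsin pair and 70% of them from 1 of the pair. No doublets were removed beyond the limit on genes.

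UMI counts were summed per library and class and tested over 4 libraries with edgeR 4.0.16 (quasi-likelihood, TMM, library as block, filterByExpr, Benjamini-Hochberg over all genes tested), with a call at adjusted p under 0.05 and log2 fold change over 1. All 6 classes were in 1 fit with 1 shared estimate of the spread per gene, and the 4 subtypes in another. The libraries are single preparations that differ in age and sex. With library as block, an SE or p-value carries how class differences vary between such libraries, over all classes of its fit. It is not the spread of the named class difference alone. The share of true class differences that the test misses in these libraries was not tested. Ratios of UMI sums were tested by exact sign-flip permutation over libraries. Age and sex, with 1 library each, got no test, genes under 200 UMIs over the pair were left out, and intervals cover counting error only. The members are reported whole. Other genes are named where they belong to a listed pathway and passed, or are 1 of the 3 nearest in level over sums. The 7 genes, the lists and the tests were chosen with earlier results of these data known. Annotation came from Ensembl 115; numpy 2.4.6, scipy 1.17.1, pandas 2.3.3 and scanpy 1.11.5 were used. Alternatives were DESeq2 1.42.0, library size only, other filters, clusterings, doublet and free RNA removal, and each library left out.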

Additional observations from a re-analysis of the deposited data

Results flagged for a closer look

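Both Arr1 and rdgC had inner-cell ratios that differed in direction between libraries, a difference that was not tested since each library stands alone. Arr1 in R8-like over R1-6-like cells was 1.31 in 1-day females and 0.796 in 7-day males, and rdgC was 1.22 in 1-day females and 0.771 in 7-day males.

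The ratio of pigment-like over neuron-like cells also lay on opposite sides of 1 in 7-day males and 1-day females. Galphaq had a ratio of 1.51 in 7-day males and 0.452 in 1-day females, Gbeta76C 1.80 and 0.375, Arr1 1.71 and 0.382, and Arr2 1.74 and 0.370. The level of ninaE went the same way, with 11435 and 5852 CPM in pigment-like and neuron-like cells of 7-day males and 2843 and 7511 CPM in those of 1-day females. These differences were not tested.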

How the results depend on the processing

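Over the 7 genes and 8 class comparisons 1043 alternative values were computed: 965 kept their side of the limits, 2 lost the call, 76 gained it and 0 reversed a called direction. Among the 965 were 71 whose sign changed while neither value was called. Library was the block that pairs the classes, and the fit with no replicate block changed 0 of these calls, but brought the calls over all genes between R7-like and R8-like cells to 54 higher and 43 lower, against 88 and 76. In R7-like over R1-6-like cells, where 0 members were called, the cells under 2% ninaE gave 5, also without rhodopsin and mitochondrial genes (5), 3 with DESeq2 and 3 to 5 without each library in turn (3 without 7-day males). In R8-like over R1-6-like cells (0 called) there were 2 with no filter, 2 with log-normalised clustering and 0 to 2 without each library (Galphaq -1.02 and Ggamma30A -1.04 without 1-day males). Under 2% ninaE there were 3, with 2 by library size only, 4 without rhodopsin and mitochondrial genes, 3 with DESeq2 and 3 without any library. In pigment-like over neuron-like cells (2 called) there were 6 without doublets and 2 to 4 without each library, Gbeta76C (1.01) and Arr2 (1.06) being added without 1-day females. Past 1.5-fold in place of 2-fold, the 21 combinations gave 5 at 3 days, 13 at 7 days and 5 between sexes, while the 2-fold limit gave 1 at 7 days in cells under 2% ninaE. The alternatives under 2% ninaE other than that limit itself were chosen after seeing the data.

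Over all genes, library size only moved the split of higher and lower calls to 468 and 3939 (from 1572 and 1904) in R1-6-like over neuron-like cells, 1202 and 2912 (from 1938 and 2114) over pigment-like cells, 586 and 80 (from 341 and 260) in R7-like over R1-6-like cells, 563 and 100 (from 349 and 246) in R8-like over R1-6-like cells and 1583 and 3256 (from 2137 and 2381) in pigment-like over neuron-like cells. Under 2% ninaE these were 449 and 740 in R7-like and 450 and 809 in R8-like over R1-6-like cells, and log-normalised clustering gave 342 and 552 and 338 and 568. In these 2 comparisons DESeq2 gave 391 and 186 and 418 and 182, R7-like over R1-6-like cells gave 405 and 170 without rhodopsin and mitochondrial genes, and R8-like over R1-6-like cells gave 447 and 194 after removal of 5% and 466 and 184 after removal of 10% free RNA. R7-like over R8-like cells gave 57 and 42 without 3-day males. Pale over yellow cells gave 15 and 10 (R7-like) and 6 and 13 (R8-like) with no replicate block, against 26 and 23 and 19 and 24, and 40 and 34 in R7-like cells with no filter. Of 580 ratios to rhodopsin or among members, 545 stayed within 1 SD and 35 moved. The 7-day library was the shallowest, and 4 libraries cannot bring an exact p under 0.125. The causes of these changes were not tested.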
